A study of Mus musculus with 48 samples.

Results

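Joining of gene segments at the mouse immunoglobulin heavy chain locus (Igh) was read in 6 of the 48 samples of the series. These were 3 libraries of cells treated with IAA and Dox and 3 of untreated cells, taken by their titles from a Wapl-degron cell line labelled as carrying a single Igh. Each library is a LAM-HTGTS list of junctions: a primer in the JH segments (the bait) was extended by linear amplification, and each junction line gives the position and strand of the DNA that the JH end had been joined to (the prey). The series as a whole asks how RAG scanning and locus contraction by cohesin work in long-range V(D)J recombination. Treated libraries held 93156, 201463 and 106528 junctions and untreated ones 268897, 715067 and 546483, so the untreated values rest on more junctions.

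All 6 libraries came from one kind of cell, a v-Abl transformed pro-B cell line that carries the Wapl-degron with OsTIR1, a Single Igh and the Emu-Bcl2 transgene and is RAG1 deficient. In all 6 samples RAG1/2 was supplied by a retrovirus, and 3 uM STI-571, an Abl kinase inhibitor, was given for 4 days in all. Untreated cells received nothing else. Treated cells received STI-571 alone for 1 day and then, for 3 days, STI-571 with 150 uM IAA (auxin) and Dox at a labelled 2 mg/mL. The controls thus carry the degron, OsTIR1 (the plant receptor through which auxin marks a degron-tagged protein for destruction), the Emu-Bcl2 transgene and the deficient RAG1, and no library tests IAA or Dox in cells without the degron. The labels do not say how many clones the line represents or whether replicates were separate cultures, so p-values measure only the spread between these libraries, which may be technical. The assay reads genomic DNA, so neither the level of Wapl nor markers of the cell type can be read from it.

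An Igh variable exon is made in ordered steps by the RAG1/RAG2 endonuclease: a D segment is first joined to a JH segment, and a VH segment is then joined to the DJH product. RAG cuts beside recombination signals, each a conserved heptamer and nonamer separated by a spacer, and joins a short-spacer signal only to a long-spacer one. D segments have short-spacer signals on both sides, while JH and VH segments have long-spacer signals. RAG is held at the JH end of the locus and can find its partner by scanning DNA that cohesin reels past by loop extrusion. Wapl takes cohesin off chromatin and so limits how far a loop can grow. Between the D cluster and the first VH genes lies the interval with the control region IGCR1, whose CTCF sites are known to hold such scanning back.

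The signals and segments on which the results turn are printed first, from the mm9 reference (5′ to 3′ as read away from the coding segment, with heptamer and nonamer positions in capitals). Ighj1 is the JH segment nearest to D, and Ighd4-1 and Ighd1-1 are the first D segment beside it and the last before the interval.
Ighj1 signal, chr12:114668045-114668083, plus strand: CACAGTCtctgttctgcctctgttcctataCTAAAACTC
Ighd4-1 signal facing JH, chr12:114668711-114668738, minus strand: CACGGTGacacgtggctcaACAAAAACC
Ighd1-1 signal facing JH, chr12:114720353-114720380, minus strand: CACAGTGctatatccatcaGCAAAAACC
The D segments themselves are short, and their letters are what allows a D to be recognised inside a VH joint. Ighd4-1 has 11 bases, Ighd2-3 has 17 and Ighd1-1 has 23.
Ighd4-1 segment, chr12:114668739-114668749, minus strand: ctaactgggac
Ighd2-3 segment, chr12:114713611-114713627, minus strand: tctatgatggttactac
Ighd1-1 segment, chr12:114720381-114720403, minus strand: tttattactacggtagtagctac
The VH signals shown are those of the 2 genes nearest to D that were used most without treatment, and of the gene and the 2 unannotated clusters of positions used most with treatment, each at the position that names the cluster. Each is the stretch there that best matches a long-spacer signal. That of Ighv8-12 ends at 116886155, apart from the annotated gene start at 116886172, so its place is less certain.
Ighv5-2 signal, chr12:114816676-114816714, minus strand: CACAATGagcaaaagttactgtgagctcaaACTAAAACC
Ighv2-2 signal, chr12:114826439-114826477, minus strand: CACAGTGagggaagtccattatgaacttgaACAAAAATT
Ighv8-12 signal, chr12:116886117-116886155, minus strand: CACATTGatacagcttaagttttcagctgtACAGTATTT
Bases next to junction position 116930100, chr12:116930061-116930099, minus strand: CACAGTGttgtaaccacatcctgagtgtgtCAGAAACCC
Bases next to junction position 115850454, chr12:115850415-115850453, minus strand: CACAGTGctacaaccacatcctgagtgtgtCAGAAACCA
Both unannotated positions have the letters CACAGTG directly at the junction, the same heptamer as at Ighd1-1 and Ighv2-2.

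Treated libraries 1 and 3 were not independent. Of the 1278 distinct VH joints with 10 or more inserted bases in treated library 1, 818 (64.0%) were found letter for letter in treated library 3, where they made up 63.4% of 1290. Treated library 2 shared 2.74% of the joints of library 1, and 2.95% of those of library 3. The 3 untreated pairs shared between 4.45% and 8.36%. Over VH segments the line counts of treated libraries 1 and 3 differed by no more than sampling noise can give (chi-square per degree of freedom 1.04, p = 0.382), while all 5 other pairs within a group had chi-square p-values of at most 0.000182. The chi-square takes each line as a separate event, and repeated lines raise it, so these small p-values can overstate how far the pairs differed. Over D and VH segments together, libraries 1 and 3 did differ (chi-square per degree of freedom 3.39). They are therefore counted as 1 sample in every mean ± SD below (n = 2 treated, n = 3 untreated), and each library's own value is given beside it.

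The libraries also differed in the JH segment that held the bait end. Ighj1 held 82.9% and 81.5% of D junctions in treated libraries 1 and 3, 25.2% in treated library 2, and 26.5% and 19.5% in untreated libraries 2 and 3. Untreated library 1 had all of its D junctions (100%) from Ighj2. The JH make-up of D junctions thus overlapped between the groups. That of VH junctions overlapped for Ighj3 and Ighj4 and did not for the other baits: Ighj1 held 76.4%, 23.4% and 76.2% of them in treated and 0%, 15.6% and 11.6% in untreated libraries, and Ighj2 held 1.52%, 57.4% and 1.46% against 100%, 61.9% and 66.7%. Results are also given within single JH baits, for which untreated library 1 has values in Ighj2 only. The reads fell into 4 sequencing runs as told by their names, and only 1 of them held both groups (treated libraries 2 and 3 with untreated library 2).

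Shares were compared by a two-sided exact permutation test over libraries. With 3 against 3 libraries the exact test cannot go below p = 0.1 (0.151 after adjustment over the 53 shares compared), and with libraries 1 and 3 as 1 sample it cannot go below 0.2, so no share could pass. Of the 53 shares, 35 (66.0%) did not overlap between the groups, and statements on shares below rest on the library values and this overlap.

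D junctions, which come from DJH joining, were most of every library. They made up 89.9%, 90.1% and 89.8% of all junctions in treated libraries 1, 2 and 3 and 97.2%, 96.6% and 97.3% in untreated libraries 1, 2 and 3. All treated libraries lay below all untreated ones, with a difference of -7.05 percentage points when libraries 1 and 3 are joined.

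Within the D cluster, the segment next to JH was used more with treatment and Ighd1-1, the last before the interval, less. Ighd4-1 (DQ52), the D segment next to JH at 0.695 kb from Ighj1, held 41.4%, 58.0% and 39.3% of D junctions in treated libraries 1, 2 and 3, against 15.0%, 10.9% and 10.4% in the untreated. The groups did not overlap, and the joined means were 49.2% ± 12.5 (SD, n = 2) and 12.1% ± 2.52 (SD, n = 3). In limma's voom fit, where counts are relative to all junctions, Ighd4-1 rose by 1.84 on the log2 scale (SE 0.20, adjusted p = 1.43e-13), or 1.93 with libraries 1 and 3 as 1 sample (adjusted p = 3.52e-12). Ighd1-1 (DFL16.1), at 52.3 kb the most used D of the untreated cells, held 30.5%, 21.7% and 33.5% of D junctions in the treated libraries and 63.8%, 68.0% and 69.5% in the untreated. The untreated values are all above the treated ones. Ighd1-1 fell by 1.37 on the log2 scale (SE 0.20, limma adjusted p = 8.33e-09), and by 1.45 with the libraries joined (adjusted p = 2.88e-08).

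Of 25 D segments and orientations tested with limma, 8 (32.0%) were called higher and 5 (20%) lower at an adjusted p under 0.05. The joined fit called 7, namely 4 higher and 3 lower, all 7 among the 13. With 1 library left out the number called ranged from 5 to 16, and with the sequencing run as a block it was 0. In the Ighd2 family 4 of 6 members were called higher. Ighd2-8 held 6.54%, 4.64% and 6.61% of D junctions in treated and 3.23%, 3.34% and 3.18% in untreated libraries, without overlap (log2 fold change 0.74, SE 0.22, limma adjusted p = 0.00477). Ighd2-6 (0.87), Ighd2-5 (0.70) and Ighd2-7 (0.68) had log2 fold changes of like size, and Ighd2-8 and Ighd2-6 stayed past the threshold in the joined fit, each at an adjusted p of 0.0229. Ighd2-5 and Ighd2-7 did not (limma adjusted p = 0.0619 and 0.0805 when joined). The members of the family farther from JH were not called: Ighd2-4 had a log2 fold change of 0.20 and Ighd2-3, the family's most used member, one of -0.08. Ighd2-3 took 14.6%, 10.3% and 14.4% of D junctions in treated and 12.5%, 12.9% and 12.5% in untreated libraries, and these ranges overlap.

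Near Ighd1-1 both Ighd6 segments were lower. Ighd6-1, at 50.3 kb, stood at -1.47 on the log2 scale (SE 0.30, limma adjusted p = 2.10e-05) and Ighd6-2, at 45.04 kb, at -1.22 (SE 0.40, adjusted p = 0.00928), and both held in the joined fit. Among Ighj4 joints alone, the Ighd6-2 share of D junctions turned, to 0.0235 points higher with treatment. Ighd6-1 took 0.129%, 0.131% and 0.112% of D junctions with treatment and 0.416%, 0.303% and 0.276% without. Both Ighd3 segments, of which Ighd3-1 lies beyond Ighd1-1 at 95.5 kb, were called lower too, but their libraries overlap between the groups and neither call held when joined (limma adjusted p = 0.157 for Ighd3-2 and 0.255 for Ighd3-1). Of the 7 Ighd5 segments tested 0 were called by limma in either direction, and 0 had an unadjusted p under 0.05. The closest was Ighd5-2, with 0 junctions in the treated libraries and 22 in the untreated (limma adjusted p = 0.0900).

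**Figure D1:**
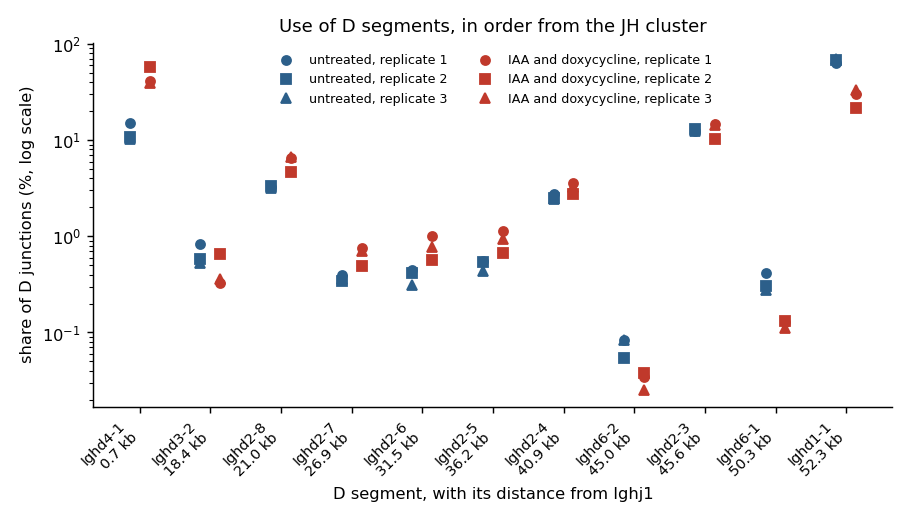
Share of D junctions (percent, log scale) for the D segments with at least 1000 junctions, ordered by distance from Ighj1, with 1 point per library (blue untreated, red treated, shape by replicate). Ighd4-1 lies between 39.3% and 58.0% with treatment and at or below 15.0% without, Ighd1-1 goes the other way, and Ighd2-3 overlaps.

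The number of lines per joint matters for these values. With each distinct junction counted once, limma called 2 D segments higher and 9 lower. Ighd4-1 (log2 fold change 1.07) and Ighd1-1 (-0.88) kept their calls, while the Ighd2-8, Ighd2-7, Ighd2-6 and Ighd2-5 calls were lost. Ighd2-3 (-0.37), Ighd2-4 (-0.38), Ighd5-6 (-1.37) and Ighd5-2 (-2.25) were called lower by that count only.

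D junctions on the strand opposite to deletional joining, as inversional joining leaves, were rare in both groups. They took 0.271%, 0.152% and 0.281% of D junctions in treated libraries and 0.0987%, 0.0789% and 0.0724% in untreated ones, without overlap. By segment, inversional Ighd4-1 rose (log2 fold change 1.65, limma adjusted p = 2.10e-05) and kept the call in the joined fit. Inversional Ighd2-8 and Ighd2-3 were called in the fit over 6 libraries and not in the joined one (limma adjusted p = 0.134 and 0.0619).

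The D segment shares were also read within single JH baits, where they did not all keep their direction. Among Ighj1 joints, Ighd4-1 held 45.4%, 47.3% and 44.5% of D junctions in the treated libraries and 8.13% and 7.86% in untreated libraries 2 and 3. Treated library 2, which stood apart over all baits, lay close to libraries 1 and 3 there. Ighd1-1 held 29.97%, 29.7% and 31.3% of Ighj1 joints with treatment and 73.5% and 74.1% without. Among Ighj4 joints, which lie farthest from D, Ighd4-1 was a smaller share in both groups, at 12.2%, 12.5% and 11.8% against 2.40% and 2.30%, and Ighd1-1 held 35.4%, 35.3% and 36.9% against 70.5% and 72.7%. Ighd2-3 did not overlap there, with 27.9%, 27.8% and 27.1% in treated and 17.8% and 16.6% in untreated libraries. In Ighj2 joints Ighd2-3 lay the other way, also without overlap, at 8.94%, 8.10% and 6.07% in treated and 12.5%, 12.4% and 11.98% in untreated libraries. Among Ighj2 and Ighj3 joints, treated library 2 gave Ighd4-1 shares of 65.8% and 54.6%. Treated library 1 gave 57.3% of 2840 and 42.6% of 357 D junctions there, and treated library 3 31.2% of 4185 and 12% of 842. For library 3 the Ighd1-1 share among Ighj3 joints was 73.8%, beside 72.2% in untreated library 3. Treated libraries 1 and 3 have few junctions with these baits, and the difference between them was not tested.

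**Figure D2:**
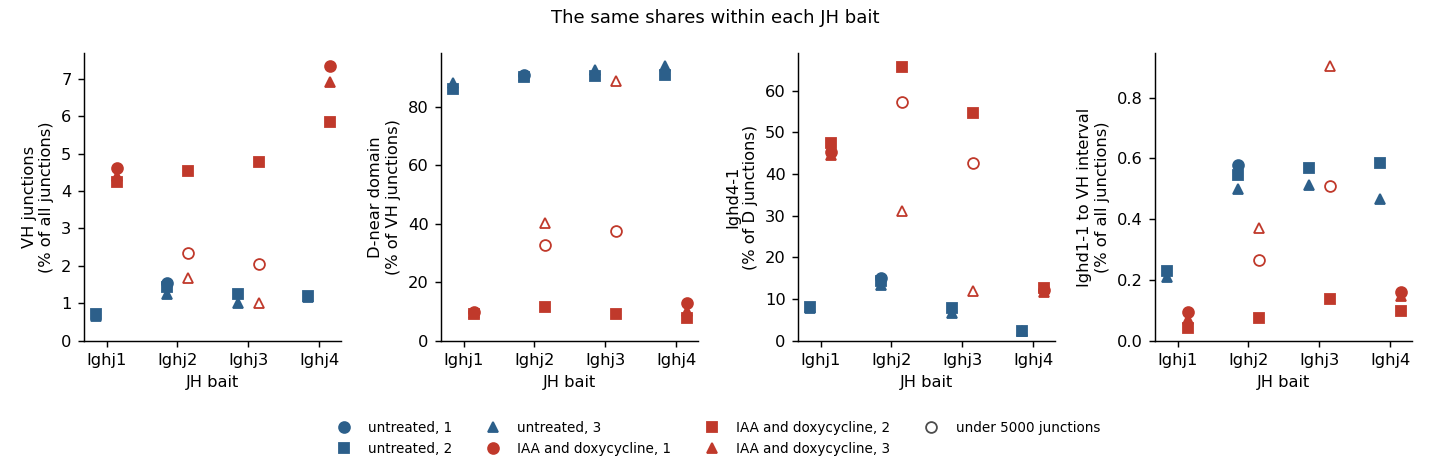
VH share, D-near share of VH junctions, Ighd4-1 share of D junctions and interval share of all junctions (percent; the interval runs from Ighd1-1 to the first VH gene), computed separately for joints of each JH segment, with 1 point per library and open points for under 5000 junctions. Ighj1 and Ighj4 joints separate the groups in all 4 panels, while the open points of Ighj2 and Ighj3 are spread, and in Ighj3 joints the interval share of treated library 3 (0.903%, 8 of 886 junctions) lies above all untreated ones.

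Beyond Ighd1-1, the 92.0 kb up to the first VH gene held joints at no annotated D or VH gene. The region behind the D share given above runs to the last annotated D gene, so that share includes the interval joints up to there. They took 0.111%, 0.0754% and 0.101% of all junctions in treated libraries 1, 2 and 3 and 0.579%, 0.468% and 0.441% in untreated ones. The groups did not overlap, and the joined ratio of untreated to treated was 5.47. Most of these joints lay close to the D cluster: within 5 kb of Ighd1-1 were 91.6%, 91.3% and 92.2% of 1557, 3343 and 2412 untreated junctions. With treatment it was 68.0%, 77.0% and 83.3% of 103, 152 and 108.

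Interval joints carried D letters in both groups. Inserts of 6 or more bases, long enough to hold part of a D, were present in 73.3%, 67.9% and 72.0% of treated and 72.8%, 71.2% and 72.0% of untreated deletional interval junctions, with overlapping ranges. In 85.1%, 88.4% and 85.7% of such treated joints and 85.7%, 82.1% and 85.7% of untreated ones, at least 7 bases of the insert matched a D segment. Ighd2 was the family matched in 81.8%, 81.2% and 82.8% of untreated and 68.3%, 77.4% and 90.9% of treated interval joints with a D. The trinucleotide CAC, with which heptamers begin, stood within 3 bases of the junction and read away from it in 76.7%, 78.2% and 76.3% of untreated and 78.2%, 83.6% and 80.4% of treated interval junctions. Of all positions of the interval, 5.86% have CAC so placed, and 5.30% have it on the other strand. A match of these 3 letters is a description and not a site.

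The 3 interval positions shown differ in how far the letters after CAC resemble a signal. They are the positions ranked 1 and 4 by untreated junctions and the one ranked 3 by treated junctions.
Bases next to junction position 114722367, chr12:114722328-114722366, minus strand: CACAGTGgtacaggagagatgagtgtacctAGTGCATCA
Bases next to junction position 114723544, chr12:114723505-114723543, minus strand: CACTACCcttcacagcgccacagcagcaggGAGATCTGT
Bases next to junction position 114811138, chr12:114811099-114811137, minus strand: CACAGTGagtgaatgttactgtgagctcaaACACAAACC
Capitals mark the places that a heptamer and a nonamer of a long-spacer signal would take. Position 114722367, 1.96 kb beyond Ighd1-1, was the most used in both groups, with 31 treated and 453 untreated junctions, which were 8.54% and 6.20% of each group's interval junctions. Position 114723544, at 3.14 kb, had 5 treated and 270 untreated junctions. Position 114811138, at 90.7 kb and so just before the first VH gene, had 24 and 209. Of its 23 letters between heptamer and nonamer positions, 20 are those of the Ighv5-2 spacer, with a shared run of 16 (gttactgtgagctcaa).

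As a share of all joints made beyond Ighd1-1, the interval and the nearest VH genes were lower with treatment and the rest of the VH region higher. Deletional joints beyond Ighd1-1 with 6 or more inserted bases made up 4.23%, 3.76% and 3.92% of all junctions in treated and 1.73%, 1.37% and 1.25% in untreated libraries, without overlap. With each distinct junction counted once they made up 8.54%, 8.25% and 7.90% against 5.88%, 4.50% and 4.16%, and the joined ratio was 1.70 in place of 2.70. In Ighj2 joints the groups overlapped both by lines (2.00%, 3.61% and 1.52% against 1.73%, 1.63% and 1.42%) and by distinct junctions (2.32%, 9.09% and 1.91% against 5.88%, 5.85% and 5.40%), and the difference of the distinct means turned to -1.27 points. Ighj3 joints overlapped as well, at 2.04%, 4.07% and 1.35% against 1.49% and 1.20% by lines, with a distinct difference of -0.188 points. Of these joints, by lines, the interval held 1.88%, 1.25% and 1.85% with treatment and 24.01%, 23.9% and 24.8% without. Within baits this share also did not overlap in Ighj2 joints, at 11.7%, 1.22% and 16.7% against 24.01%, 23.9% and 25.3%, where treated libraries 1 and 3 had 60 and 66 such joints. It overlapped in Ighj3 joints, at 12.5%, 1.93% and 41.7% against 25.05% and 26.1%, where they had 8 and 12. The VH region was divided into 4 domains by its annotated genes: a D-near domain of 20 Ighv2 and Ighv5 genes (305.3 kb), a middle domain of 27 genes of many families, an Ighv1 domain of 30 genes, and a far domain of 39 Ighv1 and Ighv8 genes (932.9 kb). Junctions were placed by position, and they lie just before a gene. The clusters at Ighv1-2 and Ighv8-5, the first genes of the Ighv1 and far domains, thus count to the domain before. The D-near domain held 10.3%, 10.1% and 9.64% of these deletional joints with treatment and 68.5%, 67.8% and 67.7% without. By contrast the far domain held 51.2%, 46.4% and 49.8% with treatment and 2.68%, 2.39% and 2.23% without. Within 500 kb of Ighd1-1 lay 13.9%, 13.6% and 13.7% of treated and 93.3%, 92.4% and 93.4% of untreated joints. The domain values are over all JH baits. In Ighj2 joints the treated libraries were more spread, and the D-near domain held 23.3%, 11.5% and 34.8% against 68.5%, 68.2% and 66.8%, still without overlap.

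**Figure D3:**
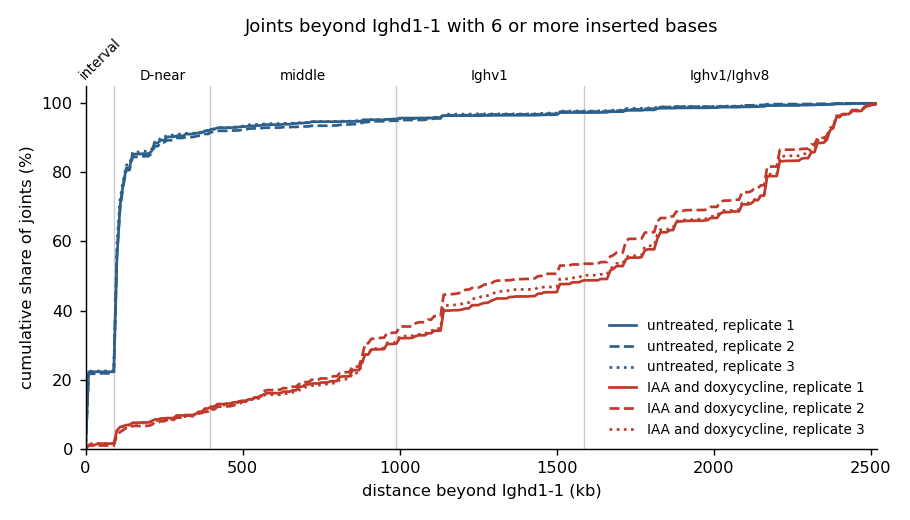
Cumulative share (percent) of deletional joints with 6 or more inserted bases against the distance beyond Ighd1-1 in kb, 1 line per library (red treated, blue untreated), with grey lines at the starts of the VH domains. By 500 kb the untreated lines have reached 92.4% to 93.4% and the treated lines 13.6% to 13.9%.

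VH junctions, the products of the second joining step, were a larger part of treated libraries. They took 4.94%, 4.55% and 4.62% of all junctions in treated libraries 1, 2 and 3 and 1.53%, 1.20% and 1.09% in untreated ones. No treated library overlapped with an untreated one, and the joined means were 4.67% ± 0.161 (SD, n = 2) and 1.27% ± 0.226 (SD, n = 3), a ratio of 3.66. Within the run that held both groups the difference was 3.39 points, against 3.43 over all libraries. Among Ighj1 joints the VH share was 4.62%, 4.24% and 4.39% in treated and 0.705% and 0.649% in untreated libraries. Among Ighj2 joints it was 2.33%, 4.54% and 1.66% against 1.53%, 1.44% and 1.25%, and among Ighj3 joints the groups overlapped, at 2.04%, 4.78% and 1.02% against 1.25% and 1.01%. With each distinct junction counted once the VH share was 9.95%, 9.99% and 9.27% against 5.12%, 3.86% and 3.58%, and the ratio of the means over 3 libraries was 2.33, in place of 3.69 by lines.

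The domains differed in direction and size. As a share of all junctions the D-near domain held less with treatment, at 0.534%, 0.477% and 0.474% against 1.39%, 1.07% and 0.993%. Its joined ratio of untreated to treated was 2.35. The middle domain held 0.926%, 0.988% and 0.916% against 0.0539%, 0.0517% and 0.0403%, a joined ratio of treated to untreated of 19.6. The Ighv1 domain held 0.921%, 0.912% and 0.909% against 0.0342%, 0.0383% and 0.0322%, a ratio of 26.2. The far domain held 2.55%, 2.18% and 2.33% against 0.0536%, 0.0340% and 0.0291%, a ratio of 59.4. In none of the 4 domains did the groups overlap, and the ratio was larger the farther the domain lay from D. Beyond the midpoint of the VH region were 57.5%, 53.2% and 55.5% of treated and 4.43%, 3.85% and 3.70% of untreated VH junctions.

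Single VH segments were tested as clusters of junction positions, named by an annotated gene within 20 bp. Of 134 segments with at least 10 junctions, limma called 124 (92.5%) higher and 5 (3.73%) lower at an adjusted p under 0.05, with a median log2 fold change of 5.04. The joined fit called 122 higher and 5 lower, all of them among the 129. Of the 134, 115 (85.8%) had no overlap between the libraries of the groups. However, 73 of the 134 had fewer than 10 untreated junctions and passed the minimum only with treated ones, which favours a higher value with treatment. Among the other 61, limma called 51 higher and 5 lower, with a median log2 fold change of 3.96. Since the VH share as a whole was larger with treatment, use was also tested relative to VH junctions alone. Then 98 (73.1%) were higher and 10 (7.46%) lower, and all 10 lower ones lay in the D-near domain.

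The 5 segments called lower per junction were the 5 nearest to D in the order of the region. Ighv5-2 (VH81X), the tested gene nearest to D and the most used VH of untreated cells (chr12:114816715-114817201), took 0.160%, 0.139% and 0.152% of all junctions with treatment and 0.656%, 0.527% and 0.514% without. The groups did not overlap, and its limma log2 fold change was -1.92 (SE 0.16, adjusted p = 1.45e-08). Ighv2-2, 14 kb from the first VH gene, took 0.0698%, 0.0556% and 0.0648% against 0.304%, 0.215% and 0.201%, again without overlap (log2 fold change -1.92, SE 0.24, limma adjusted p = 1.09e-06). Ighv5-4 (-2.08), Ighv2-3 (-1.74) and Ighv5-6 (-1.37), the next 3 genes, followed with limma adjusted p-values of 6.06e-05, 5.47e-05 and 0.000368. All 5 calls held with treated libraries 1 and 3 joined.

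Farther into the same domain, use relative to all junctions was no longer called lower. Ighv2-4, Ighv2-5, Ighv5-12, Ighv2-6 and Ighv5-9-1 were not called, with log2 fold changes of -0.43, 0.39, -0.32, -0.08 and 0.11. Relative to VH junctions alone limma called all 5 lower, at -2.34, -1.58, -2.24, -1.99 and -1.82, so their call depends on the scaling. Ighv5-12, 128 kb from the first VH gene, took 0.0279%, 0.0333% and 0.0197% with treatment and 0.0457%, 0.0347% and 0.0296% without, and these ranges overlap. Ighv5-9, which lies among these uncalled genes, was called higher on 18 treated and 24 untreated junctions (log2 fold change 1.67, SE 0.65, limma adjusted p = 0.0211). The 6 tested genes from Ighv2-9-1 to Ighv2-9, at the end of the domain, were called higher (Ighv2-6-8 although its libraries overlap between the groups; Ighv2-7 was not tested), with log2 fold changes between 1.68 (Ighv5-17) and 3.35 (Ighv5-16). Over the domain 7 of 17 tested segments were higher and 5 lower, with a median log2 fold change of 0.11 beside 5.04 over all 134. Relative to VH junctions alone 1 of these 7 higher calls was kept, that of Ighv5-16 (1.40, limma adjusted p = 0.0163), and Ighv5-9, Ighv5-15 and Ighv5-17 had values of -0.23, -0.06 and -0.28. With treated libraries 1 and 3 joined, the Ighv5-9 call was lost (limma adjusted p = 0.0667).

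In the other 3 domains the tested segments were called higher, 33 of 33 in the middle domain (median log2 fold change 4.39), 36 of 36 in the Ighv1 domain (4.93) and 48 of 48 in the far domain (5.95), beside 92.5% of all 134. With treated libraries 1 and 3 joined the middle domain had 32 higher, without the cluster at 115644684 (11 treated and 5 untreated junctions), and the other counts were as given. These counts follow in part from the minimum of 10 junctions over both groups, since 73 of the 117 segments had fewer than 10 untreated junctions and passed only with the treated ones, which favours a higher value with treatment. The other 44 segments had at least 10 untreated junctions, and 44 were called higher (21 in the middle, 9 in the Ighv1 and 14 in the far domain, with medians of 4.00, 4.48 and 5.62). Over all 4 domains, 51 of the 61 segments with at least 10 untreated junctions were called higher, with a median of 3.96. Relative to VH junctions alone, which shifts the median of all segments by 1.93, the medians were 2.51, 2.96 and 4.03, and that of the D-near domain was -1.82. By that scaling limma called 26 of 33, 26 of 36 and 45 of 48 segments higher in the middle, Ighv1 and far domains.

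The tested genes were also counted by gene family. These counts carry the same limit of the junction minimum, and those of the far families lie close to the 92.5% of all segments. All 48 tested Ighv1 genes (of 58 annotated), the largest VH family, were higher, with a median log2 fold change of 5.77. All 6 tested Ighv8 genes (of 8) were higher, with a median of 5.85. The Ighv3 (5 of 5), Ighv9 (4 of 4) and Ighv14 (4 of 4) genes tested were higher as well, with medians of 4.75, 3.75 and 4.45, and so were 13 of 13 genes of all other families. With at least 10 untreated junctions were 14 of these Ighv1 genes, 3 Ighv8, 4 Ighv3, 3 Ighv9, 2 Ighv14 and 11 other genes, each of them called higher. Over all segments with that many untreated junctions, 51 of 61 were called higher. Of 8 tested Ighv2 genes 3 were higher and 2 lower, and of 9 tested Ighv5 genes 4 were higher and 3 lower, with medians of 0.16 and 0.11. Relative to VH junctions alone those medians were -1.78 and -1.82. All of those with a count on the lower side are the D-near genes named above.

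**Figure D4:**
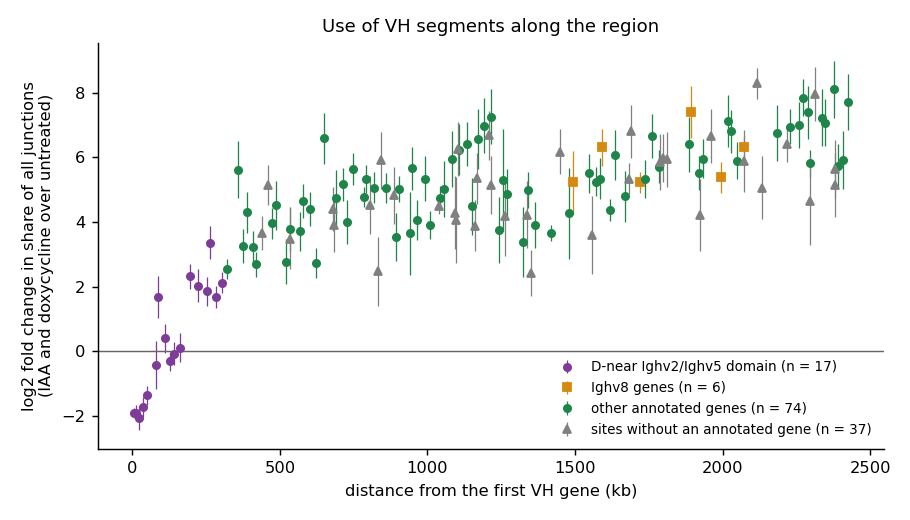
Log2 fold change in share of all junctions, treated over untreated, of the 134 tested VH segments against distance from the first VH gene in kb, with the standard error of the limma fit and colours for the D-near domain, Ighv8 genes, other annotated genes and unannotated clusters. The 5 points nearest to D lie below 0 and all points beyond the D-near domain lie above it.

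Among the segments used most with treatment, Ighv8-12 (chr12:116886172-116886572, 2074 kb from the first VH gene) came first. It took 0.258%, 0.262% and 0.271% of all junctions in treated and 0.00595%, 0.00322% and 0.00238% in untreated libraries, far apart (log2 fold change 6.32, SE 0.34, limma adjusted p = 1.72e-10). Ighv8-8 took 0.177%, 0.141% and 0.177% against 0.00744%, 0.00406% and 0.00329% (log2 fold change 5.23). Ighv1-78 (5.82) and Ighv12-3 (5.34) were also among the 8 most used, as was Ighv13-2 (4.78), which the annotation lists as a pseudogene. In each of these the lowest treated library lay above the highest untreated one.

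The share of VH junctions that lay farther than 20 bp from any annotated VH gene was 19.0%, 21.02% and 20.2% with treatment and 1.61%, 2.00% and 1.57% without, and did not overlap. All 37 tested clusters of such positions were called higher, beside 92.5% of all segments, but 30 of them passed the junction minimum only with treated junctions. The 7 with at least 10 untreated junctions were all called higher, with a median log2 fold change of 4.48. Over all segments with that many untreated junctions, 51 of 61 were called higher, with a median of 3.96. CAC stood within 3 bases of the junction in 67.2%, 70.4% and 71.0% of the treated and 70%, 58.8% and 71.0% of the untreated junctions of this kind, which overlap, beside 5.42% of every 10th position of the region outside annotated genes. The cluster at 116930100 took 0.228%, 0.226% and 0.228% of all junctions in treated libraries, with 9 junctions in all untreated libraries together. The 30 bases around its junction occur 9 times on the plus strand of chromosome 12, so which copy was joined is uncertain. The minus strand and other chromosomes were not searched for copies. The cluster at 115850454, whose 30 bases occur 1 time on the plus strand of chromosome 12, took 0.180%, 0.205% and 0.195% against 0.00669%, 0.00909% and 0.00933% (log2 fold change 4.48, SE 0.24, limma adjusted p = 1.72e-10). With treated libraries 1 and 3 as 1 sample its log2 fold change was 4.49 and the call held. Of the 23 spacer letters printed above for these positions, 20 are the same.

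Several genes and clusters from the midpoint of the VH region on had few or no untreated junctions. Ighv1-85, the annotated gene farthest from D (chr12:117238239-117238672, 2426 kb from the first VH gene), had 32, 49 and 49 junctions in treated libraries and 2, 0 and 0 in untreated ones, a pooled ratio of 248 (95% exact interval 67.3 to 2069). Ighv1-76 had 119, 192 and 118 against 0, 2 and 5. Ighv1-26 had 21, 24 and 22 junctions in treated libraries and 0 in all untreated ones, which makes it at least 85.2-fold higher against a floor of 3 counts over the group. The cluster at 117126307 had 37, 42 and 29 against 0, at least 137-fold higher on the same floor. The 30 bases around its junction occur 9 times on the plus strand of chromosome 12. Ighv1-82 had 56, 56 and 49 junctions against 0, 0 and 1 (pooled ratio 614, interval 109 to 24410). Ighv8-9 (104 treated and 2 untreated junctions) and Ighv1-77 (96 and 1) had pooled ratios of 198 (53.6 to 1660) and 366 (64.2 to 14620). Intervals and floors take each line as a separate event, pooled over the libraries of a group. Lines repeat, and treated libraries 1 and 3 shared joints, so the intervals can be too narrow and the floors too high. These segments were chosen for the size of their rise and met the junction minimum only with treated junctions, which favours large ratios.

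The D segment inside a VH joint records which DJH product the VH was joined to. In joints with 6 or more inserted bases, at least 7 bases of a D were found in 85.7%, 87.4% and 85.2% of treated and 92.6%, 92.2% and 91.2% of untreated VH joints. Short D segments such as Ighd4-1 are harder to recognise once trimmed, so shares are compared within a family and not between families. Ighd1 held 47.4%, 40.2% and 48.4% of treated and 52.2%, 53.2% and 52.7% of untreated VH joints with a D. Ighd2 held 49.1%, 52.4% and 48.8% against 44.3%, 43.8% and 43.7%, and Ighd4 held 3.07%, 6.77% and 2.57% against 2.38%, 2.02% and 2.42%. None of the 3 families overlapped between the groups. The joined difference was -8.66 points for Ighd1 and 2.52 for Ighd4, beside -40.2 for Ighd1-1 and 37.1 for Ighd4-1 among D junctions. These measures are unlike, since D junctions were placed by position and the D of a VH joint by matched letters. As joined ratios of treated to untreated, Ighd1 was 0.836 and Ighd4 2.11 in VH joints. Among D junctions the ratios were 0.400 for Ighd1-1 and 4.07 for Ighd4-1. The difference between VH joints and D junctions was not tested.

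The D found in a VH joint was also read by the place of the VH. Over all JH baits, Ighd1 held 44.97%, 37.8% and 54.1% of joints to the D-near domain with treatment and 49.7%, 49.98% and 49.5% without, which overlap. In joints to the other 3 domains together, Ighd1 held 47.7%, 40.5% and 47.7% of 2967, 5908 and 3142 treated joints and 75.5%, 78.2% and 79.96% of 319, 777 and 484 untreated ones. The groups did not overlap there, with a joined difference of -33.8 points. Ighd2 went the other way in the same joints, at 49.0%, 52.3% and 49.6% against 22.6%, 20.7% and 19.8%. This split by domain was made after the values were seen, and the difference between domains was not tested.

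Within single JH baits the pattern varied. Among Ighj1 joints Ighd1 held 48.5%, 46.7% and 50.8% of treated and 73.3% and 71.5% of untreated VH joints with a D, and Ighd2 held 48.0%, 48.2% and 46.0% against 25.3% and 27.7%. In Ighj1 joints to the D-near domain the joined Ighd1 means were 46.8% treated and 69.7% untreated, a difference of -22.9 points. In Ighj1 joints to the other 3 domains they were 48.3% and 87.5%, so within this bait Ighd1 was lower in both places. Among Ighj4 joints Ighd1 held 43.5%, 42.1% and 40.2% against 41.5% and 41.9%, which overlap. In Ighj4 joints to the 3 domains beyond the D-near one, Ighd1 held 44.3%, 43.1% and 40.1% against 48.1% of 52 and 47.8% of 23 untreated joints. The difference between JH baits was not tested.

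**Figure D5:**
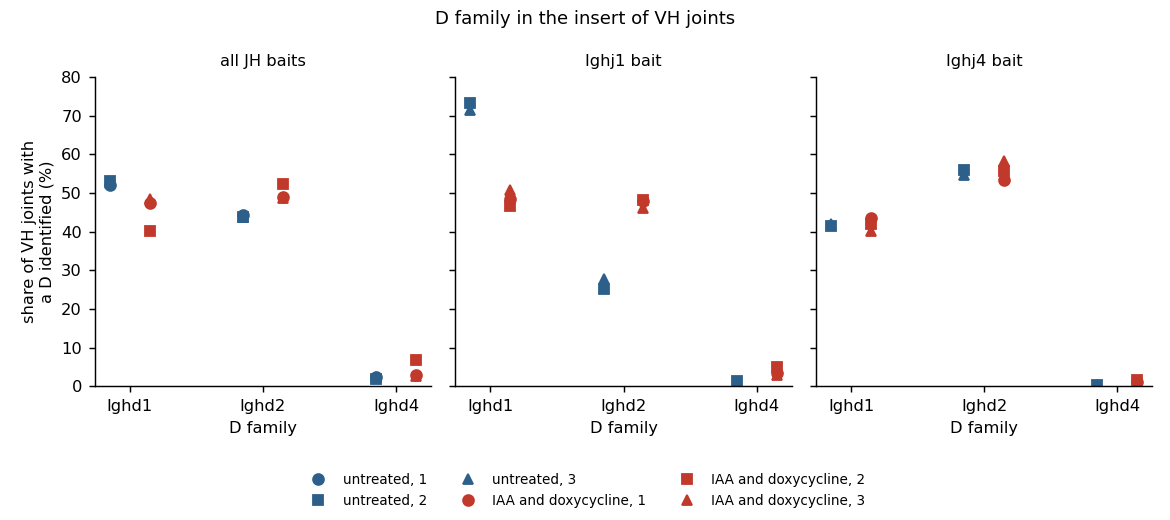
Share (percent) of VH joints with a recognised D whose insert matched Ighd1, Ighd2 or Ighd4, over all JH baits and within Ighj1 and Ighj4, with 1 point per library (blue untreated, red treated, shape by replicate). For Ighd1 the groups are 73.3% and 71.5% against 46.7% to 50.8% in Ighj1 joints and overlap in Ighj4 joints.

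The form of the joints was compared too, in deletional D junctions and in deletional VH junctions within 20 bp of an annotated gene. The VH junctions farther away, a larger share with treatment as given above, were left out. An insert was present in 97.4%, 97.5% and 97.6% of treated and 97.98%, 97.6% and 97.2% of untreated VH junctions, and in 18.1%, 26.3% and 18.3% against 23.5%, 20.7% and 21.04% of D junctions, and both overlap. Inserts of 6 or more bases were less frequent among treated VH junctions, at 84.9%, 83.4% and 83.6% against 87.0%, 88.1% and 86.8%, without overlap. Ighd1-1 ends that the alignment placed with no base lost were more frequent with treatment, at 55.6%, 46.6% and 53.2% of Ighd1-1 junctions against 41.6%, 41.8% and 41.5%, without overlap. Ighd2-3 ends of this kind did not overlap either, at 63.9%, 58.7% and 62.6% against 57.6%, 53.0% and 53.1%. For Ighd4-1 such ends overlapped, at 58.6%, 50.5% and 59.2% against 51.2%, 50.6% and 49.9%. Bait and prey alignments shared letters in 61.7%, 51.2% and 61.4% of treated and 57.6%, 57.7% and 57.4% of untreated D junctions. In those the bases lost are not certain, and the values for D ends are over all JH baits. The strand was read over all VH junctions, near an annotated gene or not. Those on the minus strand, opposite to deletional joining, were 1.37%, 1.26% and 1.46% of treated and 0.949%, 1.21% and 1.34% of untreated VH junctions, which overlap.

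Junctions elsewhere were higher in treated libraries with some spread. Prey on other chromosomes made up 3.24%, 2.06% and 3.55% of treated and 0.485%, 0.762% and 0.198% of untreated junctions. Prey within the JH cluster made up 1.82%, 3.19% and 1.89% against 0.740%, 1.39% and 1.36%. Neither overlapped between the groups, but with distinct junctions counted once the JH region share of all junctions did (two-sided exact permutation p = 0.8). The difference in that share was 1.13 points, and 0.688 without treated library 2. Within Ighj1 joints the groups overlapped, at 1.92%, 3.14% and 2.02% against 1.96% and 2.13%. The Igk light chain region, an off-target check with RAG signals on another chromosome, held 0.0612%, 0.0670% and 0.0460% against 0.0740%, 0.0582% and 0.0608%, and these overlap.

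The line most like this one, the Wapl-degron line not labelled single Igh, had been treated the same way with 3 libraries in each group. There the VH share was 3.50%, 3.27% and 4.63% with treatment and 0.797%, 0.854% and 0.977% without. Ighd4-1 held 63.1%, 59.8% and 61.4% against 9.54%, 13.3% and 12.98% of D junctions, and Ighd1-1 held 22.9%, 25.2% and 23.2% against 79.0%, 76.2% and 76.8%. Of 10 shares whose log2 ratio of treated to untreated was compared between the lines by exact permutation of the line labels, none passed. The smallest p was 0.045 (0.45 after adjustment), for Ighd1-1, with log2 ratios of -1.23 in the single-Igh line and -1.70 in the other. Treated library 2 of the other line had 28.4% of its lines beyond its number of read names, and with each read name counted once the exact permutation p was 0.02 (0.2 after adjustment). For VH segments limma's term for the difference between lines called 0 of 160 (0.0%) at an adjusted p under 0.05, and 17 had an unadjusted p under 0.05. The 5 with the smallest unadjusted p, which share an adjusted p of 0.395 with 10 others, were Ighv2-9-1 and unannotated clusters at 116625359, 116771963, 117193848 and 116853389. The treated libraries of the other line also shared joints, between 19.9% and 51.1% of those of each pair, and untreated libraries of the 2 lines shared from 0% to 9.89%, so these tests do not run over independent libraries, and a miss of the threshold does not show that the lines responded alike.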

How the data were processed

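Junctions of 6 LAM-HTGTS libraries were read from the authors' deposited lists, 1 junction per line, and counted by line here. The deposited values are positions, strands and read names on mm9 with no normalization, per the labels. Bowtie2 is named in the submitters' processing notes, and the filters (uncut, misprimed, mapping quality, repeat, duplicate and others) are named per the file headers without thresholds. Libraries carry no molecular identifiers, so repeated lines may be 1 joining event, and VH genes are similar, so a mapping filter can drop or move their junctions.

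Genes were taken from the mm9 annotation (116 VH, 21 D, 4 JH, of which 79, 20 and 4 were renamed through RefSeq synonyms). Segments are clusters over gaps of up to 20 bp. Counts of at least 10 junctions were fitted with limma 3.58.1 voom (prior 0.5, library size all junctions, R 4.3.3), with Benjamini-Hochberg adjustment. The fit shares its estimate of spread, so small p-values do not measure 1 segment's spread. Shares were compared with exact permutation tests (scipy 1.17.1). A D in an insert is a match of at least 7 bases in inserts of at least 6. On simulated data with 8-fold changes the fit recovered 97.5% of 40 changed VH segments (of 134) and 75% of 8 changed D segments (of 25), and it called 5.32% and 0% of the unchanged ones. The simulated libraries were independent, without repeated lines, shared joints or differences in JH bait, and smaller changes were not simulated. These rates may therefore not hold for the data here.

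Segments named are the 8 most used per group, all called lower, the 8 largest rises without overlap, the nearest and farthest, and the 5 with the smallest p for the difference between lines. Alternatives were distinct junctions, other count minimums and library sizes, the run or replicate number as a block, each library left out and a quasi-binomial model. Members, lists and tests were chosen with earlier results of these data known. Shares of the interval, of D families in VH joints, single JH baits and the joining of treated libraries 1 and 3 were added after seeing these data. The replicate numbers are in the titles, and the 6 libraries of the Wapl-degron line were used for comparison. Segment borders were set over the 25 JH-bait libraries of the series.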

Additional observations from a re-analysis of the deposited data

How the results depend on the processing

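Of 628 values recomputed with 1 library left out, 591 kept their direction and side of the threshold, and of 87 recomputed within the shared sequencing run or with the run as a block, 66 did. The VH segment count (129) was 234 with at least 1 junction and 61 with at least 100, since other numbers of segments were tested, 57 with Ighj4 joints only, and 76 with the run as a block. With 1 library left out it ranged from 111 to 128. The D segment count (13) was 7 with treated libraries 1 and 3 as 1 sample, 0 with the run as a block (1 residual degree of freedom), and 5 to 16 with 1 library left out, at 5 without treated library 3 or untreated library 3, 6 without treated library 1 and 8 without untreated library 2. With the replicate block, limma called 129 VH segments and 11 D segments, and 0 differences between lines. Same-numbered libraries had correlations of -0.035, 0.039 and 0.055 over VH segments, many of them with few junctions. Such values cannot show whether libraries of 1 number shared a culture or preparation.

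The interval's difference in joints beyond Ighd1-1 (-22.6 points) was -23.7 with distinct junctions, -18.6 in Ighj1, -14.6 in Ighj2, -6.85 in Ighj3 (with overlap) and -25.9 in Ighj4 joints. Reversed directions include the following, and the cause was not tested. By bait, these were inversional D (-0.00372 points, Ighj3), between D segments (0.0442, Ighj1), constant side (-0.00459, Ighj4, and -0.00855, Ighj3), Ighd5-6 (0.00196, Ighj4, and 0.00171, Ighj1), Ighd2-6 (-0.0652, Ighj2), Ighd2-4 (-0.527, Ighj2), Ighd6-2 (0.0235, Ighj4) and Ighd1 in VH joints (0.234, Ighj4). With distinct junctions, Ighd2-4 was -0.884 points and, in log2 fold change, Ighd2-7 was -0.087 and Ighd2-4 -0.38. Ighv5-9-1 was -1.82 relative to VH junctions (-1.83 with the libraries joined). Ighv2-5, Ighv5-9, Ighv5-15 and Ighv5-17 also turned relative to VH junctions, at -1.58, -0.23, -0.06 and -0.28. The share of joints beyond Ighd1-1 turned by distinct junctions in Ighj2 and Ighj3 joints, as given in the report. Depth limits the interval, with the treated junction counts given in the report.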
